A study of Mus musculus with 4 samples.

Results

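Keratins are the intermediate filament proteins of epithelial cells, and 10 of them were followed here across the epithelium of the mouse trachea. They are Krt5, Krt14, Krt15 and Krt17, called basal keratins below, Krt4, Krt6a, Krt13 and Krt16, called squamous keratins, and Krt8 and Krt18, called simple keratins. The members were given by name, and each of the 10 symbols stood for 1 of the 22583 features of the deposited matrix. Single cells of adult mouse tracheas were sequenced as 4 libraries. The labels give 3 mutant lines with primary ciliary dyskinesia and a wild-type control, all on the 129S6/SvEvTac background and aged 5 to 8 months. The mutants were bgh, with a mutated Spef2 (cells pooled from 5 tracheas), Cfap54gt/gt, with a gene trap in Cfap54 (6 tracheas), and nm1054, which lacks Cfap221 (6 tracheas), and the wild-type library held cells pooled from 6 tracheas. All 4 pools were digested with pronase, plated for a few hours to separate fibroblasts and cleared of dead cells, which can set the share of each cell type that reached a library.

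The barcodes carry a library number from 1 to 4, and no source used here ties a number to a genotype. The libraries are therefore called by number, no genotype was compared. Cell classes were compared within each library and are described by a rule of size, with no p-value. The libraries held 39658153 to 53491773 unique molecular identifiers (UMIs), and 3692 to 6746 cells each were kept, 19471 in all. Between libraries, 52 barcode sequences were shared, and these were kept as separate cells. Of the 350 cells of a shallow cluster that was left unnamed, 256 came from library 1.

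Keratin filaments are built from pairs of a type I and a type II chain. Krt4, Krt5, Krt6a and Krt8 are type II chains, and Krt13, Krt14, Krt15, Krt16, Krt17 and Krt18 are type I chains. Basal cells, the stem cells of the tracheal surface, are known for Krt5 with Krt14 or Krt15, and the secretory and multiciliated cells that derive from them for Krt8 with Krt18. Hillocks are small stratified patches of the tracheal epithelium whose cells are known for Krt13 and Krt4, the pair of moist squamous epithelia such as the oesophagus. Krt6a, Krt16 and Krt17 are known as keratins of injured or stressed epithelium.

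Promoter windows of 250 bases before and 50 bases after the annotated start are shown for a keratin of the basal set, a keratin of the squamous set and the simple pair, as examples of the 3 sets. They were taken from RefSeq on build GRCm38.p6, which is not the build of the counts, and 5 of the 10 members had an entry. The Krt5 window lies at chr15:101712856-101713155 on the minus strand. For Krt13, which has 2 starts in the table, the window of the start listed first is shown, at chr11:100121517-100121816 on the minus strand. The Krt8 window lies at chr15:102004293-102004592 on the minus strand and the Krt18 window at chr15:102027966-102028265 on the plus strand. Each is written 5′ to 3′ on the gene's strand. Capitals mark matches on either strand to TATAAA, the letters of a TATA box, or to TGANTCA, the letters bound by AP-1 factors.
Krt5: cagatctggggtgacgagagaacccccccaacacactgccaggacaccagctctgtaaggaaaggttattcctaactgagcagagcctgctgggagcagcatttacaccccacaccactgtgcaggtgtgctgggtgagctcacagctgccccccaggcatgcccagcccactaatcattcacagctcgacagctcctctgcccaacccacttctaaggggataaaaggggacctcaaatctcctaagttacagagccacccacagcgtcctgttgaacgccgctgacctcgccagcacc
Krt13: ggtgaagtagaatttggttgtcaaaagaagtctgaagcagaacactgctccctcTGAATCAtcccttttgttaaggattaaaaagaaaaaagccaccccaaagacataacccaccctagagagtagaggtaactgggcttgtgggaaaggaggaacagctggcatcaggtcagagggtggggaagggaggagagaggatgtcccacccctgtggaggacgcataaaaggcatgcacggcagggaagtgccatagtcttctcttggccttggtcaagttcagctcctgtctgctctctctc
Krt8: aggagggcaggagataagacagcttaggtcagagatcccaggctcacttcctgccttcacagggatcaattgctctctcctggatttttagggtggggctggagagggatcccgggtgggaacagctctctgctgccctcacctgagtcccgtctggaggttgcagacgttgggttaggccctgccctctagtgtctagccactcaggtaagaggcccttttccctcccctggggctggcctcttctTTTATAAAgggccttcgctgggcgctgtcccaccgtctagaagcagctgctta
Krt18: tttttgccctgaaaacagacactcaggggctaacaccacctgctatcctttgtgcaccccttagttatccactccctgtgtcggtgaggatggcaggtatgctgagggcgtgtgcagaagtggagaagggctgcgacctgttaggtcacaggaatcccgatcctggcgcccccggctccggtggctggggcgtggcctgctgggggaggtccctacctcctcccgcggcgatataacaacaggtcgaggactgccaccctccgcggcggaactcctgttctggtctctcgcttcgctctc
TATAAA occurred in 13.6% and TGANTCA in 7.81% of all 32851 promoter windows of the same length. The Krt13 window held 1 match to TGANTCA, at position 55 from its 5′ end, and the window of its other start, which is not shown, held 2, at positions 68 and 217. The Krt8 window held TATAAA on both strands in overlapping letters, from positions 248 and 250. The Krt5 and Krt18 windows held neither motif.

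Cells were clustered without any of the 53 numbered keratin genes and named from other markers, so the keratins took no part in the classes. The hillock-like class was 1 cluster of 201 cells (27, 21, 90 and 63 in libraries 1 to 4), with 7 of 8 hillock markers up, among them Ecm1 and Mal. All 8 secretory markers were up in it as well, and the part of free RNA and of doublets in that was not tested. Hillock markers were also up in other clusters, such as 6 of 8 in a basal-like cluster led by Tpm2 and 5 of 8 in the proliferating-like cluster. The secretory-like class held 4495 cells, the ciliated-like class 4766 and the basal-like class 5151. Median UMIs per cell were 7757 in hillock-like, 10607 in secretory-like, 2546 in ciliated-like and 4074 in basal-like cells. The 74 leukocyte-like cells, in clusters led by Cd3g and Cd74, should lack keratins and give the background. Their median depth was 1716 UMIs.

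Levels are given as CPM, a gene's UMIs per 1000000 UMIs summed over the cells of a class in a library. Each UMI tags 1 transcript at its 3′ end, so levels of different keratins can be set side by side without a length correction. Possible read sharing between paralogs, such as Krt14, Krt16 and Krt17 or Krt6a and Krt6b, still leaves their levels and pair ratios uncertain. Log2 ratios were taken within a library with 1 CPM added, which understates the ratios of genes near 0. A gene is called higher or lower where the ratio was at least 2-fold the same way in all 4 libraries and the pair of classes held at least 50 UMIs of it. Shares of all genes called are given under this scaling and the clustering at resolution 1 only. Calls under other settings have no such share beside them. Intervals are exact 95% intervals and cover counting error only.

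Of the basal keratins, Krt5 separated the classes most sharply. It stood at 21.6, 200, 33.8 and 90.3 CPM in hillock-like cells of libraries 1 to 4, 1.54, 2.67, 2.70 and 4.38 CPM in secretory-like cells, 2.93, 3.95, 2.39 and 5.41 CPM in ciliated-like cells, and 651, 495, 567 and 833 CPM in basal-like cells. The basal-like libraries lay above all libraries of the other classes, and no groups overlapped with them. Basal-like cells, 26.5% of the kept cells, held 89.6% of all Krt5 UMIs. With every cell thinned to 1000 UMIs, Krt5 was found in 6.47% of hillock-like, 0.225% of secretory-like and 0.359% of ciliated-like cells, against 39.1% of basal-like cells. It was found in 5.09% of thinned leukocyte-like cells (3 of 59, interval 1.06% to 14.2%). The hillock-like interval, 3.49% to 10.8%, lay within that of the leukocyte-like cells and above those of secretory-like cells (0.108% to 0.413%) and ciliated-like cells (0.201% to 0.591%). The few leukocyte-like cells give the background only roughly. Summed over libraries, Krt5 stood at 75.7 CPM in hillock-like and 64.4 CPM in leukocyte-like cells. The leukocyte-like value came from 13 UMIs in 3 cells, and the libraries disagreed. In libraries 1 and 3 it was 105 and 83.4 CPM, above the hillock-like levels. In libraries 2 and 4 it was 0, with upper limits of 159 and 87.4 CPM, below the hillock-like levels.

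Krt14, the classical type I partner of Krt5, did not follow it into the hillock-like comparison. Its levels were 268, 1211, 223 and 381 CPM in hillock-like cells, against 375, 453, 553 and 328 CPM in basal-like cells, and the groups overlapped. In secretory-like cells it reached at most 5.73 CPM and in ciliated-like cells at most 2.87 CPM. In basal-like cells the gene was carried by a minority: 24.0% of the cells had a Krt14 UMI, against 74.9% for Krt5, and the top 10% of cells held 86.1% of its UMIs.

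Krt15, a type I keratin linked to progenitor cells of stratified epithelia, was the most widely shared member of the basal set. It stood at 2830, 4476, 3162 and 6120 CPM in hillock-like cells, 529, 653, 580 and 722 CPM in secretory-like cells, 49.3, 37.4, 56.2 and 53.0 CPM in ciliated-like cells and 2137, 1438, 1722 and 3007 CPM in basal-like cells. The secretory-like and ciliated-like ranges did not meet each other or those of the remaining classes, and the hillock-like and basal-like ranges overlapped, with the hillock-like level above the basal-like level within each library. After thinning, 37.7% of secretory-like cells had a Krt15 UMI, against 13.6% of leukocyte-like cells (8 of 59). Secretory-like cells held 22.1% of all Krt15 UMIs and basal-like cells 35.8%.

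Krt17, a type I keratin of basal and activated cells, was the most abundant basal keratin in basal-like cells of libraries 1 to 3, and in library 4 Krt15 was. Its levels were 1820, 4743, 1311 and 1448 CPM in hillock-like cells, 171, 205, 121 and 125 CPM in secretory-like cells, 61.2, 65.7, 72.2 and 42.5 CPM in ciliated-like cells and 3437, 4310, 4105 and 2681 CPM in basal-like cells. Hillock-like cells of library 2 lay above the basal-like range, and those of the other 3 libraries below it. A single cell of library 2 held 551 of that library's 1402 hillock-like Krt17 UMIs, and without it the level there was 3052 CPM. Leukocyte-like cells held 243 CPM of Krt17 over all libraries and 8.47% of them had a UMI after thinning, against 153 CPM and 9.38% in secretory-like and 59.4 CPM and 2.63% in ciliated-like cells, and neither share lay above the leukocyte-like interval of 2.81% to 18.7%.

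The squamous pair peaked in hillock-like cells. Krt13 stood at 520, 2788, 907 and 1202 CPM in hillock-like cells, 1.76, 4.48, 3.71 and 3.85 CPM in secretory-like cells, 1.26, 1.82, 2.15 and 1.35 CPM in ciliated-like cells and 50, 65.9, 105 and 160 CPM in basal-like cells. Its type II partner Krt4 stood at 1278, 3227, 1857 and 2038 CPM in hillock-like cells, 33.8, 46.1, 68.8 and 69.6 CPM in secretory-like cells, 2.51, 4.26, 4.78 and 5.03 CPM in ciliated-like cells and 68.1, 71.8, 145 and 137 CPM in basal-like cells. For both genes the lowest hillock-like library lay above the highest of every other class. After thinning, Krt13 was found in 48.3% of hillock-like cells and in 0 of 59 leukocyte-like cells. That 0 allows a share of up to 5.08% by the floor of 3 counts, and of up to 6.06% by the exact interval. Krt4 was found in 75.1% of hillock-like cells and likewise in 0 of those 59. The 201 hillock-like cells, 1.03% of the kept cells, held 42.0% of all Krt13 UMIs, and the basal-like cells held 43.0%.

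Krt6a and Krt16 were shared more evenly between hillock-like and basal-like cells. Krt6a, a type II keratin induced on injury, stood at 373, 2240, 365 and 327 CPM in hillock-like cells, 16.6, 29.6, 26.4 and 7.63 CPM in secretory-like cells, 9.22, 16.4, 17.5 and 5.61 CPM in ciliated-like cells and 291, 402, 320 and 170 CPM in basal-like cells. Krt16, its type I partner, stood at 557, 1313, 876 and 903 CPM in hillock-like cells, 68.8, 119, 75 and 45.6 CPM in secretory-like cells, 41.5, 14.9, 33.2 and 12.4 CPM in ciliated-like cells and 452, 536, 629 and 370 CPM in basal-like cells. For both genes hillock-like cells were the highest class within each of the 4 libraries, with log2 ratios over basal-like cells of 0.19 to 2.48 for Krt6a and 0.30 to 1.29 for Krt16. The hillock-like and basal-like ranges over libraries overlapped, and both ranges lay above those of secretory-like and ciliated-like cells.

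The simple keratins were abundant in every class. Krt8 stood at 5223, 3180, 3798 and 3781 CPM in hillock-like cells, 6426, 7050, 5428 and 6169 CPM in secretory-like cells, 10288, 9704, 8462 and 8448 CPM in ciliated-like cells and 3487, 4075, 3998 and 4202 CPM in basal-like cells. Krt18 stood at 3160, 1881, 2084 and 2074 CPM in hillock-like cells, 4437, 5754, 4049 and 5031 CPM in secretory-like cells, 7710, 8790, 5817 and 7220 CPM in ciliated-like cells and 3066, 4100, 3172 and 3301 CPM in basal-like cells. Ciliated-like cells were highest in both genes in all 4 libraries, and the hillock-like and basal-like ranges overlapped. After thinning, Krt8 was found in 95.5% of hillock-like, 93.4% of secretory-like, 90.0% of ciliated-like and 82.2% of basal-like cells, against 15.3% of leukocyte-like cells. Leukocyte-like cells averaged 1243 CPM of Krt8 over all libraries, and the part of free RNA in the basal-like level was not tested.

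**Figure D1:**
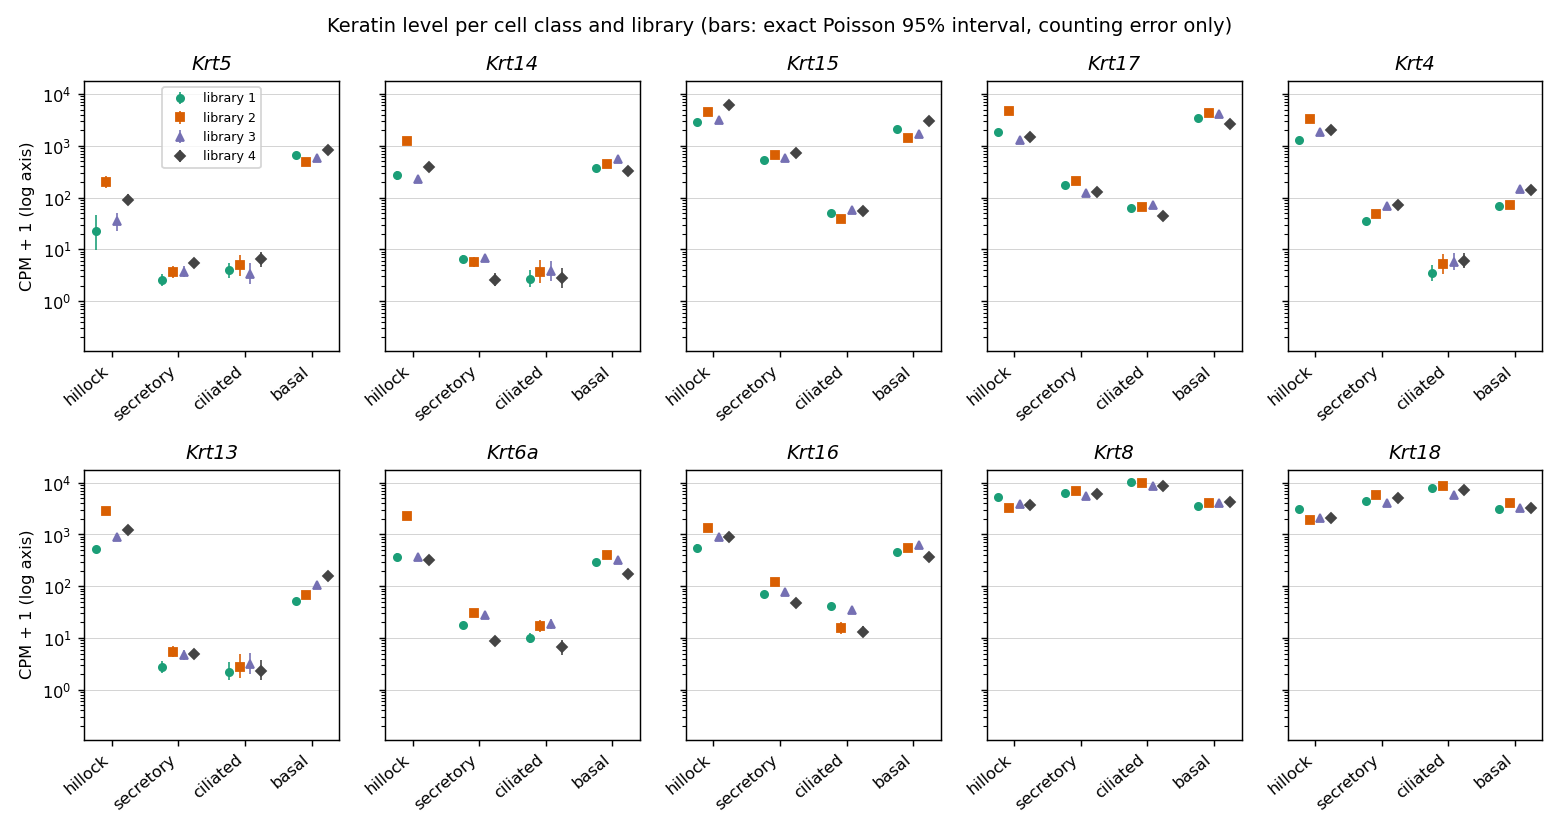
Level of each keratin (CPM + 1, log axis) in hillock-like, secretory-like, ciliated-like and basal-like cells, 1 point per library with its exact Poisson 95% interval, which covers counting error only. Krt4, Krt13, Krt15, Krt6a and Krt16 are highest in hillock-like cells, Krt5 in basal-like cells, and Krt8 and Krt18 in ciliated-like cells in each of the 4 libraries.

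Between hillock-like and basal-like cells, 2 keratins were called higher and 1 lower, where 3.87% of the 10288 genes with enough UMIs were called higher and 5.18% lower. Krt4 was higher by a median log2 ratio of 4.05 over the libraries (3.67 to 5.47) and Krt13 by 3.23 (2.90 to 5.38). Krt5 was lower, with a median log2 ratio of −3.61 (−4.85 to −1.31). Krt14 (−0.13), Krt15 (0.95), Krt17 (−0.90), Krt6a (0.65), Krt16 (0.88), Krt8 (−0.11) and Krt18 (−0.64) were not called. The Krt5 result depended on where the hillock-like cluster was drawn: at Leiden resolution 1.6 its median log2 ratio was 0.14, Krt14 (1.94), Krt6a (2.39) and Krt16 (1.88) were called higher as well and Krt18 (−1.35) lower. The cluster then held 114 cells of the basal-like class, which are described further on.

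Between secretory-like and basal-like cells, 7 keratins were called lower and 0 higher, where 18.8% of 11358 genes were called lower and 2.22% higher. The median log2 ratios were −7.27 for Krt5, −6.32 for Krt14, −4.40 for Krt17, −4.35 for Krt13, −3.89 for Krt6a, −2.84 for Krt16 and −1.79 for Krt15. Krt4 missed the rule at −0.98, and Krt8 (0.67) and Krt18 (0.51) did not reach 2-fold. The median over all genes was −0.58 in this contrast. With size factors the median over all genes was −0.01, both simple keratins were then called higher and Krt15 was no longer called (−1.10). With the Tpm2-led cluster left out of the basal-like class, a choice made after seeing the data, Krt13 was not called (−1.91).

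Between ciliated-like and basal-like cells, 8 keratins were called lower and 1 higher, where 9.84% of 11784 genes were called lower and 21.2% higher. The 8 were the basal and squamous keratins, with median log2 ratios from −7.20 for Krt5 to −4.41 for Krt4. Krt8 was higher at 1.17 (1.01 to 1.56). Krt18 stood at 1.11 (0.88 to 1.33) and missed the rule in library 3. The Krt8 call sat at the threshold: it was lost with size factors, with thinned cells, with a mean over cells, with doublets kept and at resolution 1.6.

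Between hillock-like and secretory-like cells, all 8 basal and squamous keratins were called higher and 0 lower, where 11.2% of 10508 genes were called higher and 1.42% lower. The ratio was largest for Krt13, with a median log2 of 7.77, then Krt14 (6.28), Krt4 (5.03), Krt6a (4.83), Krt5 (3.66), Krt16 (3.49), Krt17 (3.47) and Krt15 (2.61). The median over all genes in this contrast was 0.62, well below each of these. Krt8 (−0.61) and Krt18 (−1.12) were not called, and with size factors both were called lower. Krt5 was not called once cells were thinned.

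Between ciliated-like and secretory-like cells, 2 keratins were called lower and 0 higher, where 2.64% of 11763 genes were called lower and 31.8% higher. These were Krt15, with a median log2 ratio of −3.57, and Krt4, with −3.43. The remaining 6 basal and squamous keratins had medians from −1.51 to 0.34. The median over all genes was 0.85 here and 0.13 with size factors, under which Krt17, Krt16 and Krt6a were called lower as well, 5 keratins in all.

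**Figure D2:**
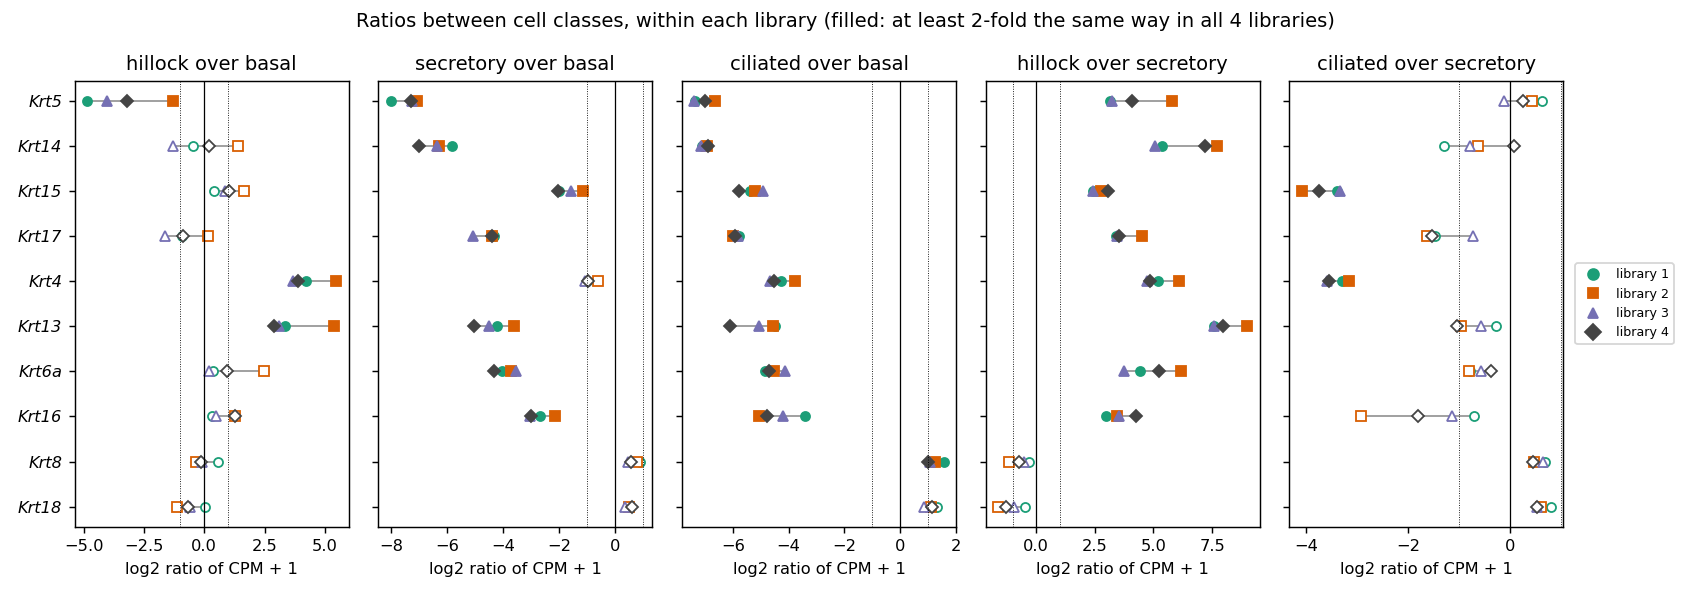
Log2 ratio of CPM + 1 between cell classes, taken within each library (1 point per library, line from lowest to highest), for the 5 contrasts. Filled points mark keratins at least 2-fold the same way in all 4 libraries, and dotted lines mark 2-fold: Krt4 and Krt13 are the filled points right of 0 in hillock over basal, and Krt5 the filled points left of it.

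The UMIs of the 10 keratins divided differently in each class. In hillock-like cells 38.3% came from basal, 26.9% from squamous and 34.7% from simple keratins. In secretory-like cells the shares were 6.53%, 1.29% and 92.2%, in ciliated-like cells 0.682%, 0.264% and 99.1%, and in basal-like cells 44.9%, 6.58% and 48.6%, each in the same order. The hillock-like squamous share was 17%, 37.9%, 27.4% and 24.3% in libraries 1 to 4, against 6.15%, 6.75%, 7.83% and 5.51% in basal-like cells, with no overlap. The summed level of the 10 keratins was 17699 CPM in hillock-like, 11916 CPM in secretory-like, 16846 CPM in ciliated-like and 15152 CPM in basal-like cells. When hillock-like cells were instead gated on summed hillock markers, 1659 cells were taken and their squamous share was 8.39%, so the 26.9% belongs to the cluster and not to every cell with hillock markers.

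**Figure D3:**
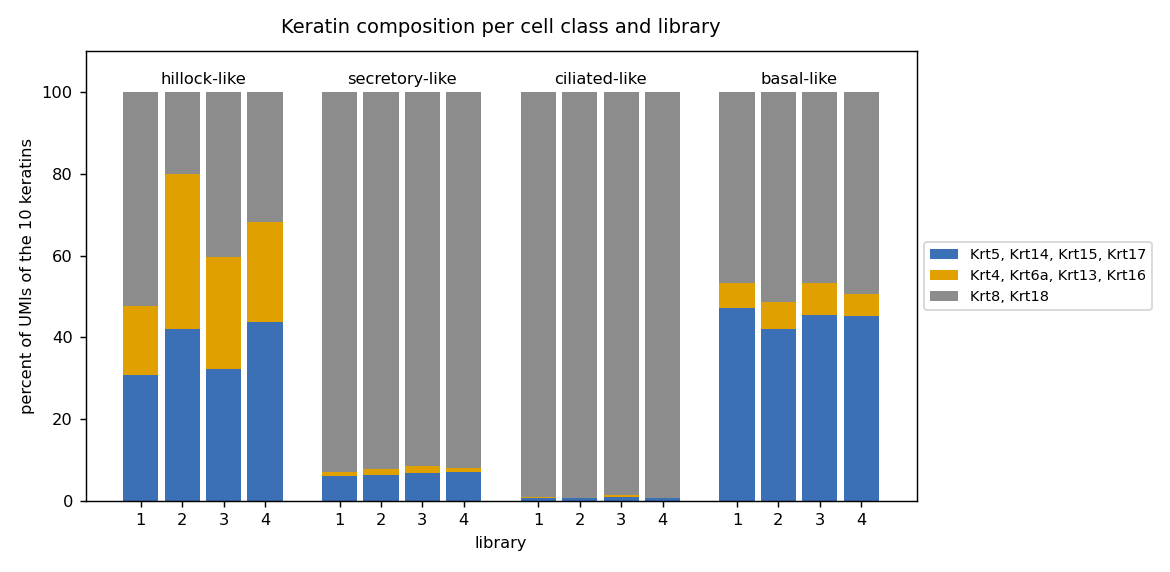
Percent of the UMIs of the 10 keratins that came from basal (Krt5, Krt14, Krt15, Krt17), squamous (Krt4, Krt6a, Krt13, Krt16) and simple (Krt8, Krt18) keratins, 1 bar per library in each class. Squamous keratins take 17% to 37.9% in hillock-like cells and 5.51% to 7.83% in basal-like cells, and simple keratins take 91.5% to 92.9% in secretory-like and 98.7% to 99.2% in ciliated-like cells.

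Pair ratios, taken as log2 of the type II over the type I UMIs, need no scaling to depth. Krt8 over Krt18 was 0.81 at the median library in hillock-like cells (0.73 to 0.87), 0.36 in secretory-like cells (0.29 to 0.53), 0.32 in ciliated-like cells (0.14 to 0.54) and 0.26 in basal-like cells (−0.01 to 0.35). The hillock-like range lay above those of the 3 other classes. A tilt towards Krt8 was not particular to hillock-like cells. In 114 basal-like cells described further on, Krt8 stood at 2512 CPM and Krt18 at 647 CPM over all libraries. In library 2, 1 hillock-like cell held 290 of the 940 Krt8 UMIs and 284 of the 556 Krt18 UMIs of its class. Krt4 over Krt13 was 0.90 in hillock-like cells (0.21 to 1.30), 4.20 in secretory-like cells (3.36 to 4.27) and 0.28 in basal-like cells (−0.23 to 0.47). Secretory-like cells thus held 2939 UMIs of Krt4 beside 182 of Krt13, a ratio of 16.2, against 1.66 in hillock-like and 1.09 in basal-like cells. After thinning, 4.84% of secretory-like cells had a Krt4 UMI and 0.472% a Krt13 UMI, both within what 0 of 59 leukocyte-like cells allows, and the part of free RNA in this ratio was not tested.

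Krt5 over Krt14 was 0.46 in basal-like cells and varied between libraries, with values of 0.80, 0.13, 0.04 and 1.35. In hillock-like cells it was −3.64, −2.60, −2.72 and −2.08, so Krt14 exceeded Krt5 there in all 4 libraries. Krt5 over Krt15 in basal-like cells was steadier, at −1.71, −1.54, −1.60 and −1.85. Krt6a over Krt16 was −0.92 in hillock-like, −2.03 in secretory-like, −1.04 in ciliated-like and −0.80 in basal-like cells at the median library, and in hillock-like cells it changed sign between libraries (−1.47 to 0.77). Across families, Krt13 over Krt5 was 4.20 in hillock-like cells (3.73 to 4.74), against −2.67 in basal-like cells (−3.70 to −2.38). Krt8 over Krt5 was 6.10 in hillock-like, 11.17 in secretory-like and 11.52 in ciliated-like cells, against 2.62 in basal-like cells. Outside the basal-like class, detection of Krt5 after thinning was not above the leukocyte-like interval. Hillock-like cells of library 1 held 7 UMIs of it. The part of free RNA in the ratios with Krt5 was not tested.

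Within single cells, basal keratins were mixed with simple or squamous keratins in most basal-like cells. Among cells with at least 10 keratin UMIs, 89.6% of hillock-like cells (180 of 201; 95% interval 84.5% to 93.4%) drew 20% to 80% of their keratin UMIs from basal keratins. The share was 7.59% in secretory-like cells (320 of 4217), 0.277% in ciliated-like cells (9 of 3248) and 79.7% in basal-like cells (3978 of 4990). In basal-like cells 8.84% drew over 80% from basal keratins and 11.4% under 20%. The rest could be simple or squamous: 59.7% of hillock-like and 5.81% of basal-like cells drew at least 20% from squamous keratins. The median basal share per cell was 37.0% in hillock-like, 4.99% in secretory-like, 0% in ciliated-like and 46.8% in basal-like cells. After thinning, Krt5 and Krt8 were found together in 31.2% of basal-like cells, against 5.09% of leukocyte-like cells. Doublets and free RNA also put both in 1 barcode, and their part was not tested.

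**Figure D4:**
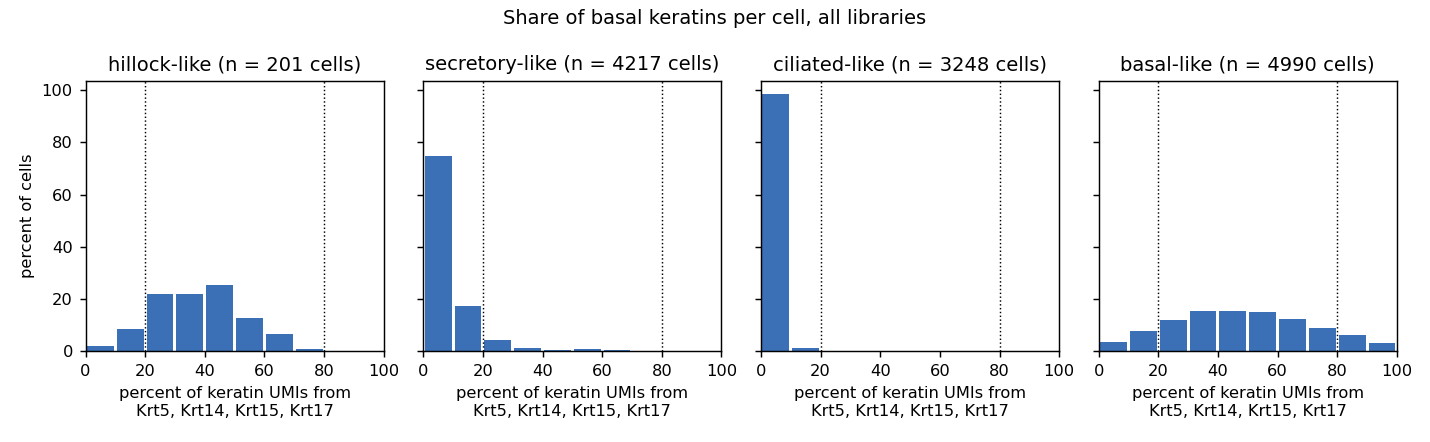
Percent of cells (bars of 10 percentage points) by the share of their keratin UMIs from Krt5, Krt14, Krt15 and Krt17, for cells with at least 10 keratin UMIs, all libraries, with dotted lines at 20% and 80%. Basal-like cells spread over the whole range around a median of 46.8%, hillock-like cells lie below 80%, and secretory-like and ciliated-like cells pile up under 20%.

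Krt4 was found in 200 of the 201 hillock-like cells, and so beside nearly every partner. Of the 164 hillock-like cells with a Krt13 UMI, 163 also had a Krt4 UMI, against 39 of 104 secretory-like and 272 of 524 basal-like cells with Krt13. The depth per cell differs between these classes. Krt5 was found in 47 hillock-like cells, and all 47 also held Krt13. In basal-like cells 463 of the 524 cells with Krt13 also held Krt5.

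In basal-like cells Krt13 lay almost wholly in few cells. The top 10% of cells held 99.7% of its UMIs, and 10.2% of cells had any. With every cell thinned to 1000 UMIs, the 194 of 5115 basal-like cells with a Krt13 UMI were set against those without. Krt4 stood at 737, 944, 1042 and 802 CPM in cells with Krt13, against 53.3, 43.3, 74.2 and 64.7 CPM in cells without, a median log2 ratio of 3.78. The median log2 ratios of cells with over cells without Krt13 were 2.42 for Krt16, 2.16 for Krt14, 1.82 for Krt6a and 1.20 for Krt5. They were −0.28 for Krt8 and −0.84 for Krt18. Both keratins were below 0 in all 4 libraries, with Krt8 at −0.005 in library 1. Basal-like cells with a Krt14 UMI (759) had median log2 ratios over cells without of 2.75 for Krt13, 2.01 for Krt4, 1.89 for Krt16, 1.48 for Krt6a and 0.09 for Krt15. Cells were sorted here by a keratin's own value, so these ratios are descriptions.

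Of the 3 clusters of the basal-like class, 2 are compared, called by leading genes. Of the 8 hillock markers, 6 were up in the cluster led by Tpm2 and 2 in the cluster led by Apoe. In the cluster led by Tpm2 (1632 cells), 5 keratins were called higher than in the cluster led by Apoe (2215 cells) and 0 lower, where 1.59% of 9652 genes were called higher and 1.07% lower. They were Krt13 (median log2 3.68), Krt16 (2.59), Krt4 (2.22), Krt6a (1.83) and Krt14 (1.31), and Krt5 differed by 0.40. Without the 114 Tpm2-led cells described in the next paragraph, a choice made after seeing the data, Krt13 (2.52), Krt16 (2.10), Krt6a (1.52) and Krt4 (1.48) were still called higher and Krt14 (0.82) was not. The share of all genes called without those cells was not computed. Krt13 stood at 230 CPM in the Tpm2-led cluster and 14.3 CPM in the Apoe-led cluster over all libraries. The simple keratins made up 41.3% of the keratin UMIs of the Tpm2-led cluster and 45.8% of those of the Apoe-led cluster, and the squamous keratins 10.4% and 3.29%, in the same order.

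A finer clustering, at resolution 1.6, drew 114 cells of the Tpm2-led basal-like cluster together with 165 of the 201 hillock-like cells. This overlap was noticed after the values were seen. The 114 cells carried Krt5 and Krt14 together with Krt13. Krt5 stood at 2686, 1706, 1414 and 1285 CPM in them, against 701, 581, 611 and 998 CPM in the other 1518 Tpm2-led cells. Krt14 stood at 3952, 3927, 3095 and 1673 CPM in them, against 302, 620, 507 and 447 CPM. Krt13 stood at 864, 1731, 1285 and 2232 CPM in them, against 50, 103, 83.8 and 167 CPM. None of these ranges overlapped. The share of all genes with ranges apart in this split was not computed. Krt15, by contrast, stood at 1608, 773, 2183 and 4593 CPM in the 114 cells, against 1581, 1244, 1591 and 2965 CPM, with overlapping ranges. Krt18 was the reverse of Krt13, at 576, 184, 721 and 730 CPM in the 114 cells, against 3366, 3904, 2958 and 3017 CPM.

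Set against the 165 hillock-like cells, the 114 cells had a higher Krt5 level in all 4 libraries and no steady difference in Krt13. Krt13 stood at 864, 1731, 1285 and 2232 CPM in the 114 cells and 1512, 2844, 1056 and 1354 CPM in the 165, so it was lower in libraries 1 and 2 and higher in libraries 3 and 4. Over all libraries Krt5 stood at 1625 and 78.9 CPM, Krt14 at 2896 and 532 CPM, Krt4 at 1136 and 2377 CPM and Krt18 at 647 and 1887 CPM, each with the 114 cells first. Markers outside the keratins also differed. Col17a1, a hemidesmosomal collagen of basal cells, stood at 136 CPM in the 114 cells and 6.78 CPM in the 165. Scgb1a1, the secretory protein of club cells, stood at 1172 CPM in the 114 cells and 27592 CPM in the 165, with 1737 CPM in the other Tpm2-led cells. The remaining 36 hillock-like cells of the coarser clustering held 100 CPM of Krt13 and 730 CPM of Krt4. Their median UMI counts were 6437 in the 114 cells, 7470 in the 165 and 10127 in the 36.

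Keratins were also compared between the Tff2-led secretory-like cluster, an unnamed cluster and the hillock-like cells. A cluster of 1820 cells led by Sftpb and Ces1f stayed unnamed, with 8 of 8 secretory and 6 of 8 hillock markers up. Against the Tff2-led secretory-like cluster, 2 keratins were called higher in it and 0 lower, where 0.763% of 10612 genes were called higher and 0.339% lower. They were Krt13 (median log2 2.40) and Krt4 (2.05), and Krt15 stood at 1.05 without meeting the rule. Hillock-like cells in turn exceeded the unnamed cluster in all 8 basal and squamous keratins, where 5.54% of 9575 genes were called higher and 0.689% lower. Krt4 thus stood at 2027 CPM in hillock-like cells, 190 CPM in the unnamed cluster and 44.9 CPM in the Tff2-led cluster, and Krt13 at 1220, 16.5 and 2.0 CPM in the same order. Krt8 ran the other way, with 3928, 5652 and 7213 CPM. The Hspa1a-led secretory-like cluster (1362 cells) was not put to this rule. Over all libraries it held 78.4 CPM of Krt4, 6.92 CPM of Krt13 and 4071 CPM of Krt8. In library 2 Krt13 stood at 15.6 CPM in it and 22.0 CPM in the unnamed cluster. The Krt8 order thus does not hold with it in place of the Tff2-led cluster, and no order of clusters was tested.

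**Figure D5:**
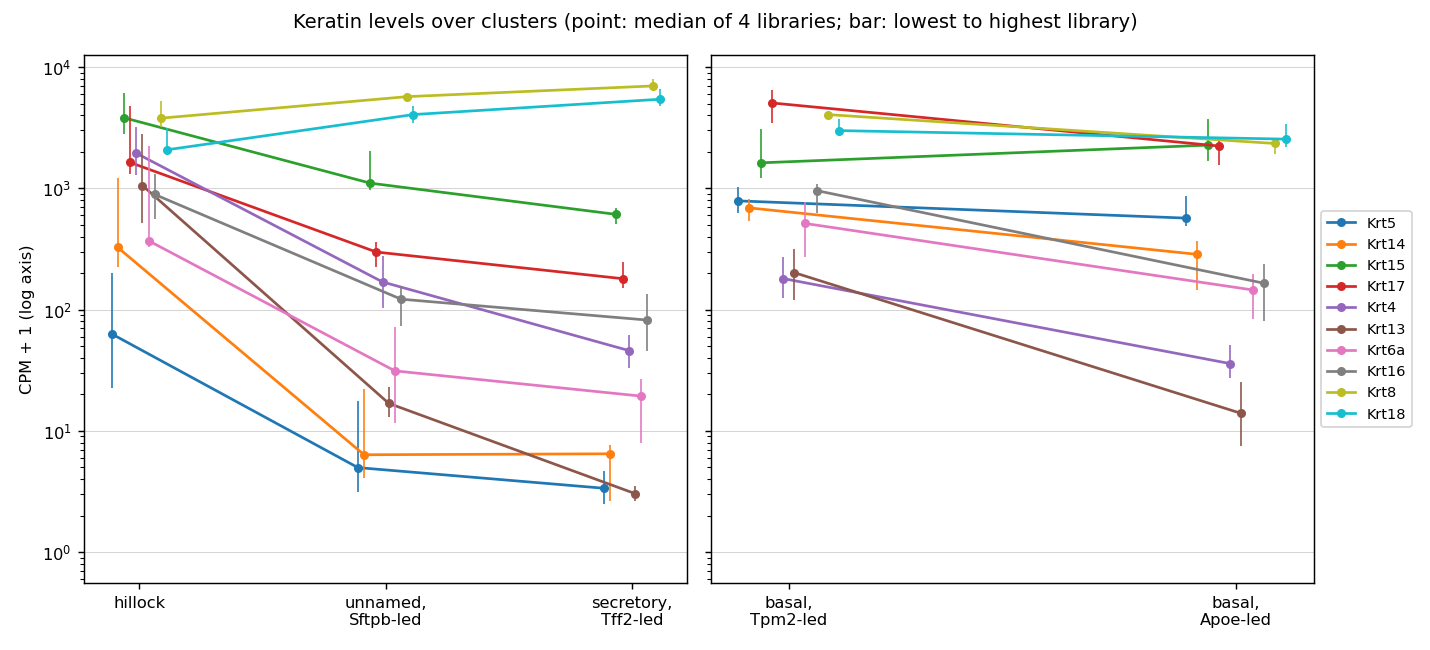
Keratin levels (CPM + 1, log axis) in the hillock-like, the unnamed Sftpb-led and the Tff2-led secretory-like cluster (left) and in the Tpm2-led and Apoe-led basal-like clusters (right). Points are medians of the 4 libraries and bars run from the lowest to the highest library; Krt4 and Krt13 decline from hillock-like to Tff2-led cells, and Krt13 is higher in the Tpm2-led than in the Apoe-led cluster.

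The Tm4sf1-led and Sntn-led ciliated-like clusters differed in the amount of Krt8 and Krt18. The Fos-led cluster (2158 cells) was not put to this rule. Over all libraries it held 7082 CPM of Krt18 and 5848 CPM of Krt8. In library 3 alone Krt8 lay above Krt18 in it, at 4939 and 4812 CPM. In the Tm4sf1-led cluster (1354 cells) Krt8 stood at 12554 CPM and Krt18 at 8897 CPM, against 1714 and 1471 CPM in the Sntn-led cluster (955 cells). Both were called higher, with median log2 ratios of 2.89 and 2.67, as were Krt17, Krt4, Krt6a and Krt16, where 9.71% of 10015 genes were called higher and 5.85% lower. In the Sntn-led cluster Krt4 had 0 UMIs and Krt6a 1 UMI, under the floor of 3 UMIs. Krt16 had 1 UMI there in each of libraries 2 and 4. Krt5, Krt14 and Krt13 had under 50 UMIs in the pair of clusters. Median UMIs per cell were 7586 in the Tm4sf1-led and 2535 in the Sntn-led cluster. Simple keratins still made up 99.0% of the keratin UMIs in the Tm4sf1-led and 98.4% in the Sntn-led cluster.

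In hillock-like and in basal-like cells, libraries differed more in each squamous and basal keratin than in Krt8 and Krt18. The span over all genes was not computed. In hillock-like cells the highest over the lowest library was 9.26-fold for Krt5, 6.85-fold for Krt6a, 5.44-fold for Krt14 and 5.36-fold for Krt13, and library 2, with 21 cells, was highest in 7 of the 10 keratins. The cells of the cluster differed between libraries: 14 of the 27 in library 1, against 1 of the 21 in library 2, were not hillock-like in the finer clustering, and in the 165 shared cells the span was 2.69-fold for Krt13, 4.76-fold for Krt14, 5.67-fold for Krt5 and 6.16-fold for Krt6a. Without its richest cell, Krt13 in library 2 was 2350 CPM, against 2788 CPM with it. In basal-like cells the span was 3.21-fold for Krt13, from library 4 to library 1, 2.36-fold for Krt6a and 2.09-fold for Krt15. It was 1.21-fold for Krt8. Library 4 was highest in basal-like Krt5, Krt13, Krt15 and Krt8 and lowest in Krt14, Krt17, Krt6a and Krt16. Genotype, pool and library run cannot be told apart in these differences.

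Other keratins were read from a list of 11. In hillock-like over basal-like cells, 3 of the 7 with enough UMIs were called higher and 0 lower, where 3.87% of all genes were called higher: Krt6b (median log2 3.55), Krt80 (2.87) and Krt7 (1.70). Krt7, a simple type II keratin of ducts and glands, stood at 2242 CPM in hillock-like and 690 CPM in basal-like cells. Krt6b is a close paralog of Krt6a, so its 38.8 CPM in hillock-like and 1.99 CPM in basal-like cells are uncertain. In secretory-like over basal-like cells Krt80 alone of 8 was called higher (1.92), where 2.22% of all genes were. In ciliated-like over basal-like cells Krt80 (2.23), Krt1 (1.86) and Krt78 (1.69), 3 of 8, were higher, where 21.2% of all genes were. Krt78 stood at 2.68 CPM in ciliated-like and 0.199 CPM in basal-like cells. It was 0 in basal-like cells of libraries 1 and 2, so this call lies near the floor. Krt23 (−3.92) was lower, where 9.84% of all genes were, at 92.5 CPM in ciliated-like and 1457 CPM in basal-like cells. Krt19, a simple type I keratin, stood at 2594 CPM in hillock-like, 1790 CPM in secretory-like, 3047 CPM in ciliated-like and 1887 CPM in basal-like cells and was called in none of the 5 contrasts.

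Desmosomes anchor keratin filaments between cells, and 10 of their genes were listed. Between hillock-like and basal-like cells 0 of 10 were called, with a list median of 0.13 beside −0.01 for all genes. Between secretory-like and basal-like cells 7 of 10 were lower, where 18.8% of all genes were, with a list median of −2.36 beside −0.58 for all genes. They included the desmosomal cadherins Dsg3 (−4.92) and Dsc3 (−3.39), the plakophilin Pkp1 (−4.16) and Perp (−2.83). Between ciliated-like and basal-like cells 5 were lower, where 9.84% of all genes were, and 1 was higher, Pkp2 at 1.41, where 21.2% were. Between hillock-like and secretory-like cells 7 of the 9 with enough UMIs were higher, where 11.2% of all genes were, among them Dsg3 (6.17), Pkp1 (5.23) and Dsc2 (4.01). Dsg3 stood at 84.5 CPM in hillock-like, 0.169 CPM in secretory-like, 0.404 CPM in ciliated-like and 34.7 CPM in basal-like cells.

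Hemidesmosomes anchor keratins to the basement membrane. Of 4 such genes, Dst (−2.83) and Itgb4 (−2.50) were lower in hillock-like than in basal-like cells, where 5.18% of all genes were, and the linker Plec differed by 0.03. Dst stood at 51.9 CPM in hillock-like, 72.8 CPM in secretory-like, 49.4 CPM in ciliated-like and 386 CPM in basal-like cells. Between secretory-like and basal-like cells Itgb4 (−2.58), Dst (−2.46) and Itga6 (−2.17) were lower, where 18.8% of all genes were.

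Of 4 genes of the cornified envelope, Evpl (2.41) and Ppl (1.55), which link keratins to the envelope, were higher and Ivl, an envelope precursor, was lower in hillock-like than in basal-like cells, where 3.87% of all genes were higher and 5.18% lower. Ivl stood at 0.485 CPM in hillock-like cells, which is 1 UMI and under the floor of 3 UMIs, and at 23.9 CPM in basal-like cells. Between hillock-like and secretory-like cells Evpl (3.62) and Ppl (1.55) were higher, of 3 with enough UMIs, where 11.2% of all genes were.

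Of 9 transcription factors of epithelial differentiation, Elf3 (1.82) was higher and Fosl1 (−1.25), an AP-1 subunit, lower in hillock-like than in basal-like cells, 1 of 9 each way, where 3.87% of all genes were higher and 5.18% lower. Between secretory-like and basal-like cells 6 of 9 were lower, where 18.8% of all genes were, led by Klf4 (−3.65), which stood at 890 CPM in hillock-like, 76.8 CPM in secretory-like, 105 CPM in ciliated-like and 1009 CPM in basal-like cells. Between hillock-like and secretory-like cells 6 of the 8 with enough UMIs were higher, where 11.2% of all genes were: Klf4 (3.59), Elf3 (3.01), Grhl1 (2.57), Grhl2 (1.98), Ehf (1.82) and Klf5 (1.81). Between ciliated-like and basal-like cells Klf4 (−3.24) and Tfap2c (−2.20), 2 of 9, were lower and Grhl2 (1.20), 1 of 9, higher, where 9.84% of all genes were lower and 21.2% higher. Tfap2c stood at 4.42 CPM in basal-like and 0.0505 CPM in ciliated-like cells, where library 3 alone held any.

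Genes whose levels ran most like a keratin's were ranked by Pearson's r of log2(CPM + 1) over the 16 sums of the 4 classes and 4 libraries, among 8742 genes. For Krt5 they were Naca (0.99), Ube2a (0.99), Dapl1 (0.98), Eif3m (0.98) and Btf3 (0.98). For Krt13 they were Ecm1 (0.99), Pon2 (0.99), Sowahb (0.99), Pax9 (0.98) and Unc5b (0.98). For Krt8 they were Ftl1 (0.97), Pfn2 (0.96), Fhl2 (0.94), Chpt1 (0.93) and Slc12a7 (0.93). The 16 sums share their libraries, and Dapl1 and Ecm1 were among the markers that named the classes.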

How the data were processed

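Tracheal cells of 3 mutant mouse lines and a wild-type control were measured by droplet single-cell RNA sequencing, 1 library per genotype. The deposited matrix holds whole UMI counts per gene and barcode from Cell Ranger 6.0.1, per the file headers, with genome build GRCm39 per the submitters' processing notes. No source used here names the annotation release. The labels give no replicate within a genotype. Cell classes were compared within each library and described by a rule of size over the 4 libraries, with no p-value.

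Barcodes with at least 500 UMIs, at least 300 genes and at most 20% mitochondrial UMIs were kept (20359 of 21667), and the highest-scoring simulated-doublet neighbours were removed at 0.8% per 1000 cells, which left 19471. Cells were clustered on 2000 variable genes and 30 principal components (scanpy 1.11.5, leidenalg 0.10.2, Python 3.11.15, resolution 1) without the 53 numbered keratin genes. Among marker lists with at least 3 markers up, a cluster took the name of the list whose markers stood highest on average (mean log2 above the 25th percentile over clusters). Clusters with 75% or more of another lineage's markers up were called mixed, basal, hillock and secretory markers counting as 1 lineage. This naming rule was set after the data were seen, and differences from the study's own classes may come from rebuilt names. Raw UMIs were summed per class and library and scaled to CPM, and the calling rule was tested on simulated data. Paralogs, such as Krt6a and Krt6b or Krt14, Krt16 and Krt17, may share reads that the counter discarded or split, so their levels are uncertain. The members, marker lists and gene lists were chosen with earlier results of these data known. Of the fixed lists, called genes could be named, led by the largest ratios, and for Krt5, Krt13 and Krt8 the 5 genes most like each. The values of 1 basal-like cluster on its own are not reported here, and its cells stay in the basal-like class.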

Additional observations from a re-analysis of the deposited data

How the results depend on the processing

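Of the single keratin ratios under other settings, 812 kept both direction and call, 35 became called, 10 were lost, 22 moved and 1 reversed: Krt5 in hillock-like over basal-like cells, 0.138 at resolution 1.6. At that resolution 5 keratins were higher in hillock-like over basal-like, 0 higher in ciliated-like over basal-like and 1 lower in hillock-like over secretory-like cells. With per-cell gates 3 were lower in hillock-like over basal-like and 2 higher in ciliated-like over basal-like cells. With doublets kept, with cells thinned to 1000 UMIs, with a mean over cells and with size factors, 0 were higher in ciliated-like over basal-like cells. Thinning, the mean over cells, size factors and totals without secretory markers each gave 5 lower in ciliated-like over secretory-like cells, and counting the Sftpb-led cluster as secretory-like, an alternative chosen after seeing the data, gave 4. Size factors and totals without secretory markers gave 2 higher in secretory-like over basal-like and 2 lower in hillock-like over secretory-like cells. Leaving out 1 library gave 1 to 2 higher in ciliated-like over basal-like cells and 2 to 3 lower in ciliated-like over secretory-like cells. No share of all genes is given under these settings, so the counts stand without one.

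The hillock-like squamous share, the secretory-like and ciliated-like simple shares and the basal-like basal share were 28.63%, 91.85%, 99.25% and 45.93% after thinning, 8.391%, 93.66%, 98.99% and 50.63% with gates, and 31.15%, 91.74%, 98.63% and 43.65% with doublets kept. Without 1 library they ranged over 24.11% to 28.59%, 91.92% to 92.39%, 99.01% to 99.14% and 44.35% to 45.66%. The share of mixed basal-like cells ranged over 78.11% to 81.11% without 1 library, and that of mixed secretory-like cells was 6.799% with at least 20 keratin UMIs. Resolution 0.6 gave no hillock-like cluster and so no hillock-like value. The causes of these shifts were not tested. No paired analysis was possible because the genotypes had 1 library each and the results come from no test, and the class ratios were all taken within a library. The 201 hillock-like cells, 21 of them in library 2, limit every hillock-like value.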

Other observations

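Dividing cells carried the basal keratins. In the proliferating-like cluster (132 cells, led by Ube2c, Top2a and Mki67) Krt14 stood at 2190, 1584, 756 and 515 CPM in libraries 1 to 4, against 375, 453, 553 and 328 CPM in basal-like cells. Krt5 stood at 1188, 668, 461 and 870 CPM in the proliferating-like cluster, so Krt14 lay above Krt5 there in libraries 1 to 3 and below it in library 4. The cluster was 0.678% of the kept cells and held 11.1% of all Krt14 UMIs. Its keratin UMIs were 47.3% basal, 9.22% squamous and 43.5% simple. Rare cell types carried the simple pattern: simple keratins made up 93.5% of keratin UMIs in the cluster with tuft markers (361 cells), 94.5% in that with neuroendocrine markers (254 cells) and 94.6% in that with ionocyte markers (65 cells). In the ionocyte-marker cluster Krt17 stood at 704 CPM and Krt8 at 11553 CPM. These 3 clusters held markers of another lineage as well.

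A small secretory-like cluster led by Lars2 (295 cells, median 2223 UMIs) stood apart from the Tff2-led cluster (2838 cells). Of the 10 keratins, 6 were called lower in it and 0 higher, where 10.5% of 9874 genes were called lower and 2.0% higher. Among the 6, Krt14 had 0 UMIs and Krt6a 1 UMI in the Lars2-led cluster. There the floor of 3 UMIs is up to 21.7 CPM. In the Tff2-led cluster Krt14 reached at most 6.65 CPM and Krt6a 6.95 to 25.9 CPM, so these calls are uncertain. Krt8 stood at 601 CPM in the Lars2-led and 7213 CPM in the Tff2-led cluster, and Krt18 at 675 CPM and 5528 CPM in the same order. Krt15 was not called, at 1000 CPM in the Lars2-led and 599 CPM in the Tff2-led cluster. The depth of these cells was low, and its part in the result was not tested.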
